A study of Homo sapiens with 6 samples.

Results

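The genes described here are 52 protein-coding genes of the human spliceosome, the machine that removes introns from pre-mRNA. They cover the parts of the U1, U2, U5 and U4/U6 small nuclear ribonucleoproteins (snRNPs), the Sm ring these particles share, the Prp19 complex and its partners, the DEAH helicases and 3 SR proteins. They were taken by symbol from a table of 57905 genes, and all 52 were among the 15343 genes with enough reads to be tested. The set was chosen by function around SNRNP40, DDX23 and PPIL1, which were selected on their log2 fold changes between these same INO80 and control siRNA libraries. Differences of the 52 genes between the groups are therefore given as values, and no p-value is given for any of them.

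RNA-seq was performed on HK-2 cells, an immortalized human proximal tubular cell line labelled as wild type. In 3 libraries the cells had received a pool of siRNAs against INO80, and in 3 libraries a non-targeting control pool. All cells were harvested at 48 h, and polyadenylated RNA was sequenced. INO80 is the ATPase of a chromatin remodelling complex that slides and exchanges nucleosomes, and the knockdown asks which transcripts depend on it. Each arm rests on 1 siRNA pool, so effects of the pool other than on INO80 cannot be told apart from effects of INO80. The labels do not say whether the replicates came from separate cultures, so p-values measure only the spread between these libraries, which may be technical.

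Splicing begins when the U1 snRNP pairs with the 5′ splice site and U2AF with the U2 snRNP marks the 3′ end of the intron. The U4/U6.U5 tri-snRNP then joins, U1 and U4 leave, and the Prp19 complex stabilizes the active machine built around PRPF8. DEAH helicases drive the later steps, release of the mRNA and recycling. Cells need this machine, and its parts are transcribed in nearly every tissue.

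Between 16829273 and 20311588 reads were counted on genes per control siRNA library, and between 20678008 and 23784599 per INO80 siRNA library. The lowest count of any of the 52 genes in any library was 166, for PPIL3, and the highest was 12534, so none was near the limit of 3 counts that a count of 0 allows. Levels of a gene across libraries are given in CPM, counts scaled to the library total after TMM normalization, and levels between genes in FPKM, which also divides by exonic length. Replicate 1 stood apart from replicates 2 and 3 in both groups, and some values are also given without it. Proximal tubule markers were only partly present: GGT1, MME and PAX8 reached a mean of 1 FPKM under control siRNA, and the other 8 of 11, including LRP2, CUBN and AQP1, did not. The summed FPKM of the proximal tubule, epithelial, mesenchymal, fibroblast, endothelial and immune marker lists overlapped between the groups for each list. Within replicate numbers, the fibroblast sum was higher under INO80 siRNA in all 3, at 9.67, 5.04 and 5.02 FPKM against 11.8, 5.90 and 6.85 FPKM. The epithelial sum (378 to 414 against 338 to 414 FPKM) and the mesenchymal sum (1491 to 2298 against 1402 to 2128 FPKM) were lower in all 3, and the part of these shifts in the results was not tested. In replicate 1 the epithelial sums were nearly equal, at 414.4 against 414.1 FPKM. FN1, with a mean of 1538 FPKM under control siRNA, made up most of the mesenchymal sum. KRT19, with 222 FPKM, was the largest part of the epithelial sum. In bulk RNA, fewer cells of a type and less RNA per cell cannot be told apart.

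INO80 was measured first as a check of the labels. It stood at 46.3, 49.3 and 54.0 CPM in control siRNA replicates 1, 2 and 3 and at 13.8, 12.1 and 14.2 CPM under INO80 siRNA. The groups lay far apart, and the log2 fold change was -1.90 (standard error 0.0956, edgeR quasi-likelihood test, Benjamini-Hochberg adjusted p = 0.000161). The exact two-sided permutation test gave p = 0.1, the smallest that 3 libraries against 3 allow.

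SNRNP40 and DDX23 were the members of the U5 snRNP group with lower levels after INO80 knockdown. SNRNP40 is the WD40-repeat protein of the U5 snRNP that sits on PRPF8, and its gene (ENSG00000060688) lies on chromosome 1 from 31732417 to 31769662 in GRCh37 coordinates. SNRNP40 stood at 54.0, 56.8 and 59.95 CPM in control siRNA replicates 1, 2 and 3. It stood at 30.7, 34.8 and 32.1 CPM in INO80 siRNA replicates 1, 2 and 3. The groups did not overlap, and the gap between them was several times the spread within either. SNRNP40 averaged 56.9 ± 2.99 CPM (SD, n = 3) under control siRNA and 32.6 ± 2.08 CPM (SD, n = 3) under INO80 siRNA, a ratio of 0.572 and a log2 fold change of -0.81 (standard error 0.0754).

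DDX23, the human Prp28, is the DEAD-box helicase that displaces U1 from the 5′ splice site (ENSG00000174243, chromosome 12 from 49223547 to 49246625, GRCh37). DDX23 stood at 111, 128 and 121 CPM in the control siRNA libraries and at 73.1, 76.3 and 74.7 CPM in the INO80 siRNA libraries. The INO80 siRNA libraries lay close together and well below all control libraries. DDX23 averaged 120 ± 8.56 CPM (SD, n = 3) under control siRNA and 74.7 ± 1.602 CPM (SD, n = 3) under INO80 siRNA, a ratio of 0.621 and a log2 fold change of -0.69 (standard error 0.0667).

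PPIL1 and CWC22, both of the Prp19-related group, were the other members with a large difference. PPIL1 is a cyclophilin, a peptidyl-prolyl isomerase that binds SNW1 in the active spliceosome (ENSG00000137168, chromosome 6 from 36822603 to 36842800, GRCh37). PPIL1 stood at 63.5, 60.8 and 62.2 CPM in the control siRNA libraries and at 35.9, 35.6 and 40.6 CPM in the INO80 siRNA libraries. The groups did not overlap, and the log2 fold change was -0.73 (standard error 0.0722), a ratio of 0.601. The PPIL1 gene overlaps C6orf89 on the opposite strand over 3155 bases, and the strand setting of the read counting is not given in the sources used here. C6orf89 had a log2 fold change of 0.18 (standard error 0.0519), opposite in sign to that of PPIL1, and its part in the PPIL1 count was not tested.

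CWC22 carries EIF4A3 to the spliceosome for the exon junction complex (ENSG00000163510, chromosome 2 from 180809603 to 180871840, GRCh37). CWC22 stood at 26.0, 31.8 and 31.4 CPM under control siRNA and at 18.2, 20.9 and 18.7 CPM under INO80 siRNA. The groups did not overlap, but the control libraries were more spread than those of PPIL1. The log2 fold change was -0.63 (standard error 0.104), a ratio of 0.648.

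**Figure D1:**
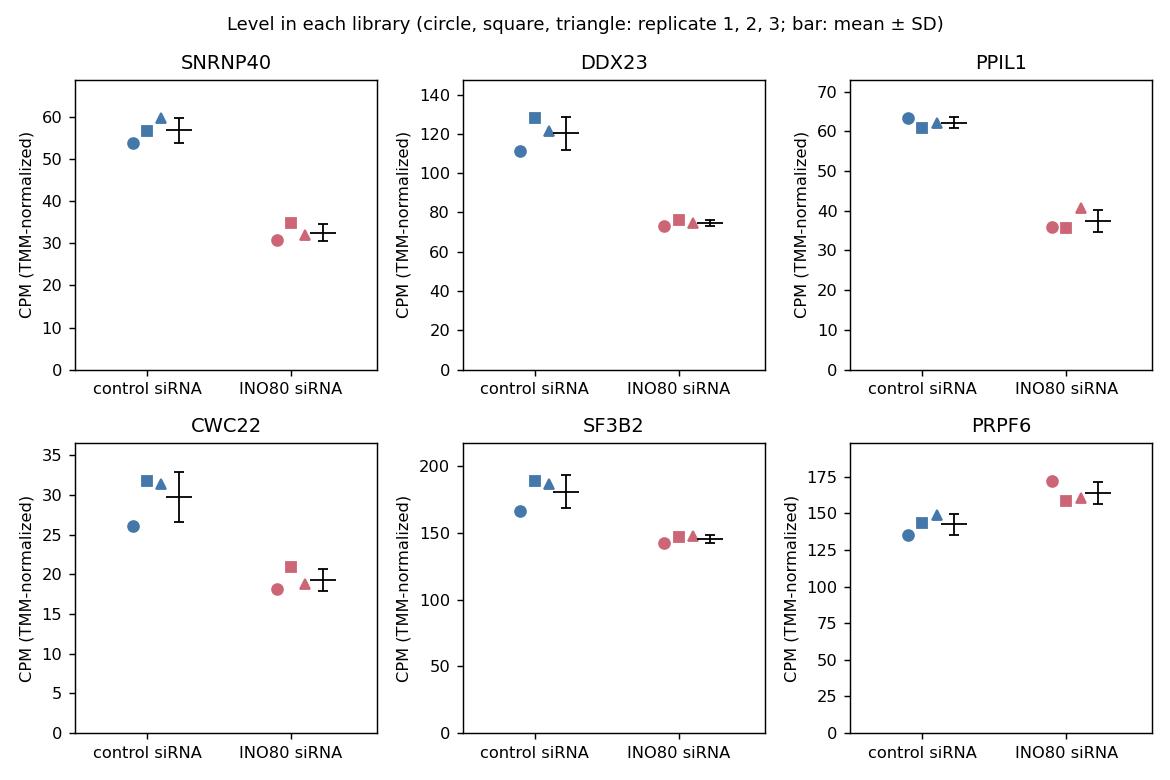
CPM (TMM-normalized, linear axis from 0) of SNRNP40, DDX23, PPIL1, CWC22, SF3B2 and PRPF6 in each of the 6 libraries, with circles, squares and triangles for replicates 1, 2 and 3 and black bars for the mean ± SD of 3 libraries. In the first 5 panels every INO80 siRNA library lies below every control siRNA library, and for PRPF6 every INO80 siRNA library lies above.

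The 7-mer AACGGCA was looked for in these transcripts because it was picked earlier, on the same data, as the 7-mer whose presence in 3′ UTRs went with the lowest levels under INO80 siRNA. Among genes set together for lower levels it gives no independent support. None of the 52 genes held AACGGCA in the 3′ UTR of the transcript with the longest coding sequence, and none did in any annotated coding transcript (GENCODE release 44). Among all tested genes with a transcript, 1.68% held it there. Within the coding sequence, 4 of the 52 genes held it, which is 7.69%, against 6.51% of all tested genes with it in the coding sequence and not in the 3′ UTR. These 4 sites are shown as 25 bases of the mRNA, 5′ to 3′, with the 7-mer in capitals, because DDX23 is the only one of the 4 lower genes among them.
DDX23: tgtacaaagAACGGCAccaggtgca
SNRNP200: cagacatccAACGGCAgaggttctt
U2AF2: gcggggctgAACGGCAtgcagctgg
DHX8: cagttcagaAACGGCAggacatgaa

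The DDX23 match lies at chr12:48837023-48837029 (hg38, minus strand) in exon 9 of 17, and the shown window runs across an exon junction. The SNRNP200 match lies at chr2:96283538-96283544 (minus strand) in exon 33 of 45, and its window crosses a junction as well. The U2AF2 match lies at chr19:55669098-55669104 (plus strand) in exon 10 of 12, and the DHX8 match at chr17:43507819-43507825 (plus strand) in exon 15 of 23. Of these 4 genes, DDX23 had a log2 fold change of -0.69, while SNRNP200, U2AF2 and DHX8 had -0.01, 0.08 and -0.07. SNRNP40, PPIL1 and CWC22 held the 7-mer neither in the 3′ UTR nor in the coding sequence.

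Over the whole set, 25 genes had a negative and 27 a positive log2 fold change. The median was 0.0077, beside 0.0066 over all 15343 tested genes, of which 48.5% had a negative value. Of all tested genes, 268 (1.75%) had an adjusted p under 0.05 (edgeR). By this criterion 4 of the 52 genes were lower, SNRNP40, DDX23, PPIL1 and CWC22. Of all tested genes 1.49% were lower by it. No member was higher by it, against 0.261% of all genes. At an unadjusted p under 0.05, 5 were lower and 1 higher, where 9.2% and 7.18% of all genes were. DESeq2 called 5 lower, with SF3B2 as the fifth, and 0 higher, where it called 3.27% and 0.88% of all genes. Since 3 of the 4 genes led to the choice of the set, nothing is read from this count. None of the 4 reached an absolute log2 fold change of 1.

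With the replicate number as a block, 7 members were lower and 3 higher, where 13.4% of all genes were lower and 11.4% higher. The lower genes were the 4 above with SF3B2, SF3B3 and SNRPD2, and the higher ones were EFTUD2, PRPF6 and SNRPF. Leaving out 1 library at a time, edgeR called 3 to 5 members lower, where it called 0.115% to 0.932% of all genes. CWC22 was among the lower members in 1 of 6 fits, the fit without control siRNA replicate 1, where 0.67% of all genes were called. The genes were selected on these same libraries, so these counts say nothing of stability. Without replicate 1 in both groups edgeR called 5 members lower, the same 4 and SF3B2, and 0 higher, where 3.37% of all genes were called. By CPM, the INO80 siRNA libraries lay all below the control libraries for 6 members and all above for 9, where 11.5% and 11.3% of all tested genes did so.

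The remaining 48 genes had log2 fold changes between -0.31 for SF3B2 and 0.20 for PRPF6, and 47 of the 48 lay within 0.2 of 0. Their standard errors ran from 0.0524 to 0.141. Without the replicate block, SF3B2, SNRPD2, PRPF6 and SNRPF lay more than 2 standard errors from 0. With the block the standard errors were smaller, for example 0.036 for SF3B3 and 0.038 for EFTUD2, which then also lay beyond 2. The share of all tested genes beyond this limit was not counted, so nothing is read from it.

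**Figure D2:**
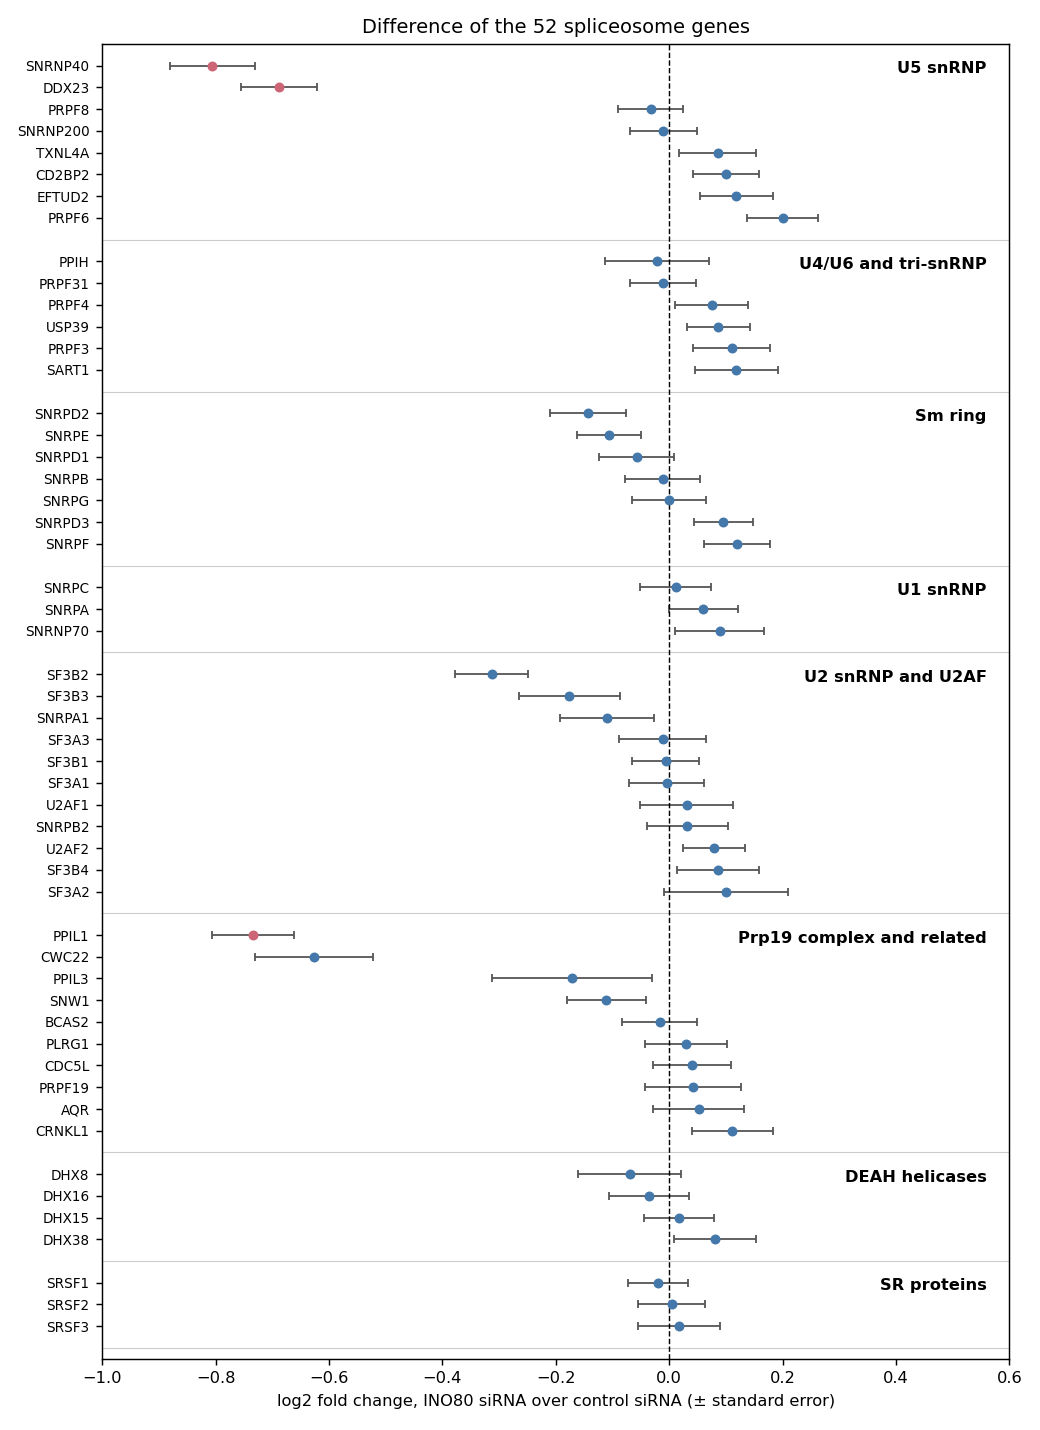
Log2 fold change of INO80 siRNA over control siRNA (x axis, linear) for each of the 52 genes by spliceosome part, with bars of ± 1 standard error from edgeR on 3 against 3 libraries and the 3 genes that led to the choice of the set in red. SNRNP40, DDX23, PPIL1 and CWC22 lie between -0.81 and -0.63, SF3B2 at -0.31, and the other 47 genes within 0.2 of 0.

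The other U5 parts did not share the lower level of SNRNP40 and DDX23. PRPF8, the scaffold that holds the catalytic RNA, stood at 447, 475 and 455 CPM under control siRNA and at 454, 464 and 428 CPM under INO80 siRNA. The groups overlapped, and the log2 fold change was -0.03 (standard error 0.0571). SNRNP200, the helicase that unwinds U4 from U6, also overlapped between groups, and its log2 fold change was -0.01 (standard error 0.0593). EFTUD2, the GTPase of the particle, had 0.12 (standard error 0.0647). TXNL4A, the small thioredoxin-like U5 protein, and CD2BP2, an assembly factor that leaves before the tri-snRNP forms, had 0.09 and 0.10.

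PRPF6, which bridges U5 to U4/U6, had the highest value of the whole set. It stood at 135, 144 and 149 CPM under control siRNA and at 172, 158 and 161 CPM under INO80 siRNA. The groups did not overlap, and the log2 fold change was 0.20 (standard error 0.0626). ZNF512B, on the opposite strand, overlaps the whole PRPF6 gene, and it had a log2 fold change of 0.06 (standard error 0.1497). Without replicate 1 in either group it was closer to 0, at the lowest value among the alternatives, 0.12.

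The 6 U4/U6 and tri-snRNP genes had a median log2 fold change of 0.08 and a range from -0.02 to 0.12. PPIH, the cyclophilin of the U4/U6 particle, was the lowest, with 28.4, 27.4 and 25.6 CPM under control siRNA and 24.2, 26.9 and 29.0 CPM under INO80 siRNA. Its groups overlapped. SART1, a tri-snRNP protein needed for the step to the active complex, was the highest, with 49.5, 54.4 and 57.0 CPM against 60.6, 55.2 and 59.0 CPM. Its groups also overlapped, and the log2 fold change was 0.12 (standard error 0.0738). Without replicate 1 in both groups, the values of PPIH and SART1 each moved by more than 1 standard error. Over the alternatives PPIH ran from -0.12 to 0.07 and SART1 from 0.03 to 0.17. Over the 12 U5 and tri-snRNP genes other than SNRNP40 and DDX23, the log2 fold changes ran from -0.03 to 0.20, 8 of them positive. By CPM the INO80 siRNA libraries lay all below the controls for 2 of all 14 U5 and tri-snRNP genes, SNRNP40 and DDX23, where 11.5% of all tested genes did. They lay all above for 6 of the 14, where 11.3% did.

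The 7 Sm proteins, which form the ring on U1, U2, U4 and U5 RNA, had a median log2 fold change of -0.01. SNRPD2 was the lowest, with 205, 195 and 179 CPM under control siRNA and 182, 175 and 167 CPM under INO80 siRNA. The groups overlapped by 1 library, and the log2 fold change was -0.14 (standard error 0.0674). SNRPF was the highest, with 77.8, 79.3 and 83.5 CPM against 86.6, 85.2 and 89.7 CPM. Here the groups did not overlap, and the log2 fold change was 0.12 (standard error 0.0577), a value no larger in size than that of SNRPD2. The partners in 1 ring thus had values on both sides of 0.

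The 3 proteins particular to U1 had log2 fold changes between 0.01 for SNRPC and 0.09 for SNRNP70, and SNRPA lay between them. SNRNP70, which binds the first stem of U1 RNA, stood at 255, 242 and 245 CPM under control siRNA and 295, 249 and 245 CPM under INO80 siRNA. Its higher mean came from INO80 siRNA replicate 1, and without that library the log2 fold change was -0.0012.

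Among the 11 genes of the U2 snRNP and U2AF, the median log2 fold change was -0.0046. SF3B2, the SF3b subunit that contacts the pre-mRNA near the branch site, was the lowest. It stood at 167, 189 and 187 CPM under control siRNA and at 142, 147 and 148 CPM under INO80 siRNA. The groups did not overlap, and the log2 fold change was -0.31 (standard error 0.0643), a ratio of 0.805. SF3B3, which binds SF3B1 in the same subcomplex, had 228, 278 and 274 CPM against 212, 243 and 235 CPM. Its groups overlapped through control siRNA replicate 1, and its log2 fold change was -0.18 (standard error 0.0889). SF3B1, the largest subunit and the one that clasps the branch site, had -0.0064 (standard error 0.0591), and SF3B4 had 0.09. SF3A2, the highest of the group at 0.10 (standard error 0.109), depended on INO80 siRNA replicate 1, and without it the value was -0.02. The U2AF pair, U2AF1 for the AG at the 3′ splice site and U2AF2 for the pyrimidine tract before it, had 0.03 and 0.08.

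In the Prp19-related group the 8 genes other than PPIL1 and CWC22 had log2 fold changes between -0.17 for PPIL3 and 0.11 for CRNKL1. PPIL3, another cyclophilin of the spliceosome, was the least counted gene of the set, with 10.1, 11.3 and 12.7 CPM against 8.56, 10.9 and 10.8 CPM. The groups overlapped and the standard error was 0.141. SNW1, the binding partner of PPIL1, had 76.5, 88.5 and 85.7 CPM against 78.0, 74.7 and 79.6 CPM. It overlapped between the groups, and the log2 fold change was -0.11 (standard error 0.0700). PRPF19, the ubiquitin ligase that names the complex, and CDC5L, its long scaffold partner, both had 0.04. CRNKL1, a repeat protein that spans the complex, stood at 36.1, 36.6 and 39.0 CPM against 38.1, 42.1 and 40.4 CPM. These groups overlapped too.

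The DEAH helicases and the SR proteins had small differences in both directions. DHX8, which releases the finished mRNA, had a log2 fold change of -0.07, and DHX38, which remodels the machine between the catalytic steps, had 0.08. DHX16 and DHX15, which act before the first step and in disassembly, had -0.04 and 0.02. SRSF1, SRSF2 and SRSF3, which bind exonic enhancers, had -0.02, 0.0041 and 0.02, with standard errors of 0.0525, 0.0588 and 0.0728. No gene of either group was separated between the libraries.

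Deviations were shared between control and INO80 siRNA libraries of 1 number, so the ratio was also taken within each replicate number. SNRNP40 had log2 ratios of -0.81, -0.71 and -0.90 in replicates 1, 2 and 3. DDX23 had -0.61, -0.75 and -0.70, and PPIL1 had -0.82, -0.77 and -0.61. CWC22 had -0.52, -0.60 and -0.74. In every replicate these 4 lay below all 48 other genes. SNRNP40, DDX23 and PPIL1 were selected on these same libraries, and CWC22 was set apart by its call in them. Their place below the rest is therefore no independent support. Of the 48, 5 were lower in all 3 replicates, 16 were higher in all 3, and the rest changed sign. The 48 leave out 4 genes that were lower in all 3, and the share of all tested genes was not counted. Nothing is read from these counts. The spread of the 48 genes was wider in replicate 1, with a standard deviation of 0.142 on the log2 scale, than in replicates 2 and 3, with 0.101 and 0.103.

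**Figure D3:**
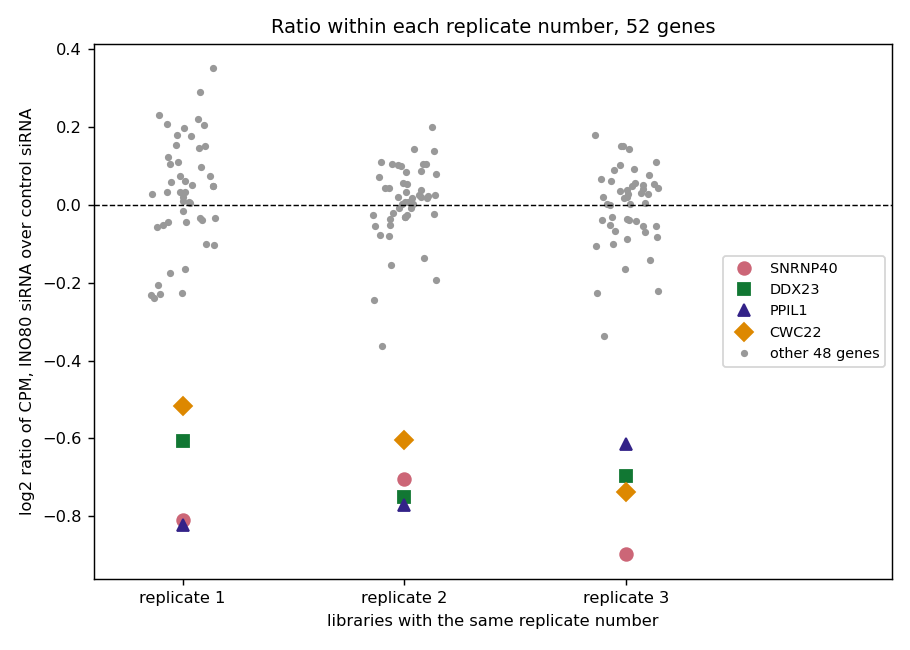
Log2 ratio of CPM, INO80 siRNA over control siRNA (y axis), within each of the 3 replicate numbers (x axis), with 1 point per gene and number, coloured symbols for SNRNP40, DDX23, PPIL1 and CWC22, and grey points for the other 48 genes. The 4 coloured genes, set apart on these same libraries, lie below all grey points in every replicate, and the grey points spread most in replicate 1.

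The levels themselves, which the choice of the set did not use, were high under control siRNA. The median FPKM of the 52 genes was 6.06 ± 0.377 (SD, n = 3) times the median of all tested genes in the same library. The mean FPKM ran from 3.88 for PPIL3 to 202 for SNRPB. In the U5 group, PRPF6, SNRNP200 and PRPF8 came first at 46.6, 44.01 and 40.3 FPKM, and neighbours in this order overlapped between libraries. DDX23 and EFTUD2 followed at 22.1 and 21.8 FPKM and also overlapped, then CD2BP2 at 19.1 and TXNL4A at 15.9. SNRNP40 was the lowest at 14.1 FPKM, below TXNL4A in every library. Under INO80 siRNA DDX23 stood at 13.8 FPKM, seventh of the 8 and below TXNL4A at 16.9, and SNRNP40 at 8.14 FPKM was again the last.

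PRPF31, which joins U4/U6 to U5, led the tri-snRNP group at 29.7 FPKM, and PRPF3 was its last at 10.6. Within the Sm ring, whose proteins are present in equal number in the particle, the FPKM values were far from equal. SNRPB stood at 202 FPKM and SNRPF at 26.3, a ratio of 7.68 ± 0.413 (SD, n = 3) under control siRNA and 7.02 ± 0.373 under INO80 siRNA. Their exonic lengths were 1824 and 3043 bases, and their CPM under control siRNA averaged 369 and 80.2. Only SNRPG and SNRPD1 overlapped among neighbours in that ring. Of the U1 proteins, SNRPC was the highest at 69.9 FPKM and SNRPA the lowest at 31.8. In FPKM, U2AF2 stood at 119 and its partner U2AF1 at 10.3, the highest and the lowest of their group. FPKM divides by the exonic length of the gene, 4115 bases for U2AF2 and 11112 for U2AF1. In CPM they averaged 493 and 114 under control siRNA, so the gap and the last place of U2AF1 rest in part on length. U2AF1 reads can be shared with U2AF1L4, whose count was 6.67% of that of U2AF1.

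In the Prp19-related group BCAS2, a core subunit, came first at 45.5 FPKM. SNW1 at 34.2, PPIL1 at 34.2 and PRPF19 at 31.9 FPKM overlapped as neighbours under control siRNA, and PPIL3 came last. Under INO80 siRNA PPIL1 stood at 20.7 FPKM, below both SNW1 and PRPF19 in every library. CWC22 went from the seventh place at 8.90 FPKM to the ninth at 5.80 FPKM, where it overlapped with AQR, the helicase-like intron-binding protein. DHX15 was the highest helicase at 36.1 FPKM and DHX8 the lowest at 5.31. SRSF1 at 111 FPKM led the SR proteins, with SRSF3 last at 71.0.

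**Figure D4:**
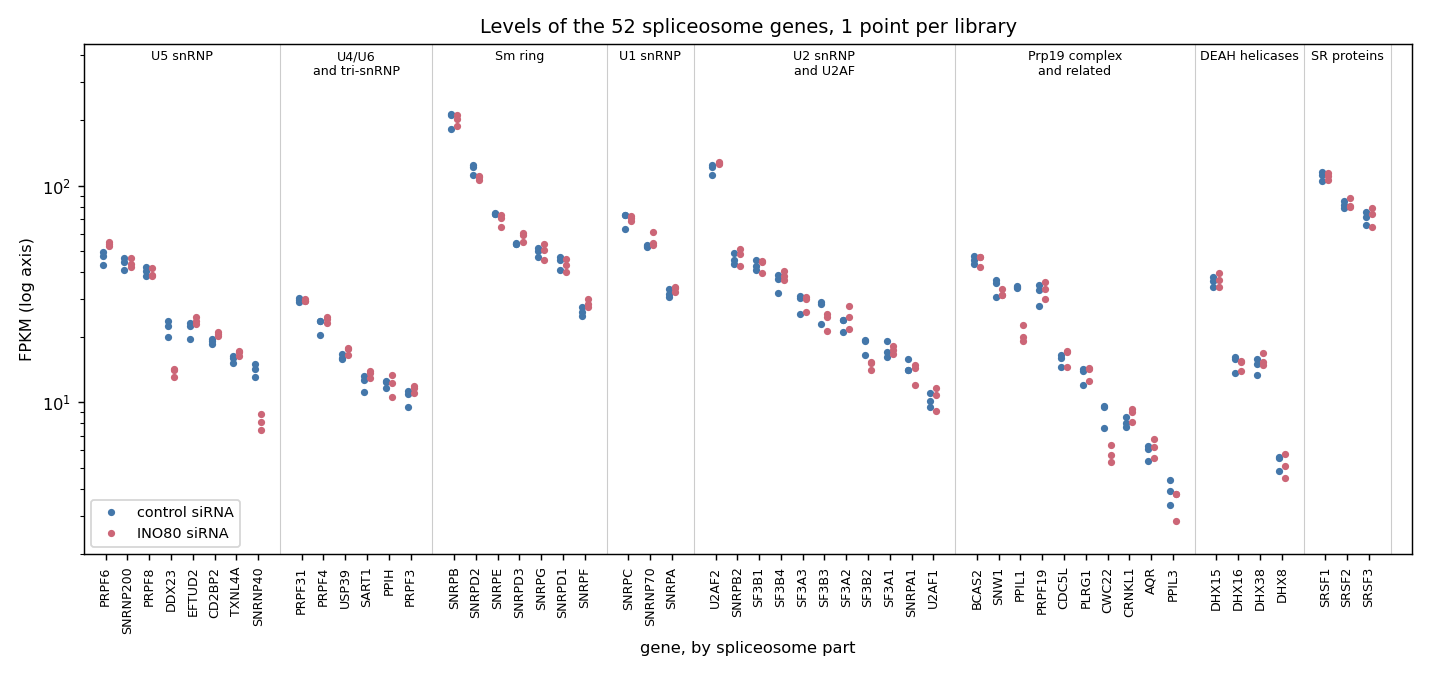
FPKM (log axis) of the 52 genes, 1 point per library, control siRNA in blue and INO80 siRNA in red, with genes ordered within each spliceosome part by their mean under control siRNA. The points of most genes lie on each other, while DDX23, SNRNP40, PPIL1 and CWC22 have red points below the blue ones.

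Ratios within a library set these genes against partners of their own particle. The FPKM ratio of SNRNP40 to PRPF8 was 0.342, 0.339 and 0.373 in the control siRNA libraries and 0.192, 0.212 and 0.213 in the INO80 siRNA libraries. That of DDX23 to PRPF8 was 0.549 ± 0.0234 (SD, n = 3) and 0.349 ± 0.0151 (SD, n = 3). PPIL1 and SNW1 had nearly equal levels under control siRNA, with a ratio of 1.01 ± 0.102 (SD, n = 3), and a ratio of 0.648 ± 0.0340 under INO80 siRNA. CWC22 over PRPF19 was 0.279 ± 0.00981 against 0.175 ± 0.00379. In each case the ratios of the groups did not overlap. These partners were chosen after the values were seen, and the ratios use the same contrast as the choice of the set.

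A further 107 spliceosome and splicing genes outside the set were taken from 11 lists by function. Their median log2 fold change was 0.00058. The test called 2 of the 107 lower and 0 higher (edgeR, adjusted p under 0.05), where it called 1.49% and 0.261% of all genes. At an unadjusted p under 0.05, 11 were lower and 7 higher, where 9.2% and 7.18% of all genes were. DESeq2 called 3 lower and 2 higher, where it called 3.27% and 0.88% of all. With the replicate block, 15 were lower and 10 higher, where 13.4% and 11.4% of all genes were.

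ZCRB1, a zinc finger protein of the minor spliceosome that removes rare U12-type introns, was lower. It stood at 30.7, 33.2 and 35.2 CPM under control siRNA and at 19.7, 20.7 and 23.7 CPM under INO80 siRNA, without overlap. Its log2 fold change was -0.63 (standard error 0.0960, edgeR adjusted p = 0.0236). The rest of that list of 9 did not pass, with log2 fold changes from -0.44 for ZMAT5 to 0.34 for SCNM1, the latter with an adjusted p of 0.136 (edgeR). With the replicate block 3 of the 9 were lower, ZCRB1, ZMAT5 (adjusted p = 0.0260) and ZRSR2 (adjusted p = 0.0102), and SCNM1 was higher (adjusted p = 0.000781).

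LSM4, of the ring that binds the end of U6 RNA, was the other lower gene. It stood at 106, 114 and 108 CPM under control siRNA and at 88.8, 84.4 and 83.4 CPM under INO80 siRNA, without overlap. Its log2 fold change was -0.36 (standard error 0.0589, edgeR adjusted p = 0.0299). The list of 7 LSm genes had a median of -0.06, with none other past the threshold. Leaving out 1 library, edgeR called ZCRB1 in 2 of 6 fits and LSM4 in 1 of 6, where 0.115% to 0.932% of all genes were called. Both were lower in all 3 replicates and had negative values in every alternative. Both genes are named for their calls in these same libraries, so these signs are no independent support.

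In the other 9 lists no gene passed in edgeR without the block. SNRNP27, a small tri-snRNP protein, had a log2 fold change of -0.32 (edgeR, standard error 0.0738, adjusted p = 0.0801). CLNS1A, which loads Sm proteins for snRNP assembly, had 0.25 (standard error 0.0583, edgeR adjusted p = 0.0791). It stood at 60.2, 62.8 and 63.2 CPM under control siRNA and 71.9, 73.1 and 76.7 CPM under INO80 siRNA, without overlap. SNUPN, which carries assembled snRNPs into the nucleus and was named after its values were seen, had 0.35 (standard error 0.0825, edgeR adjusted p = 0.0793), also without overlap. With the replicate block the adjusted p was 0.000232 for SNRNP27, 0.000221 for CLNS1A and 0.001003 for SNUPN. TFIP11, which works with DHX15 in disassembly, had 0.23 and an edgeR adjusted p of 0.188 (0.00976 with the block). The gene with the smallest p in each remaining list, SMNDC1, GPKOW, SRSF5, CASC3, CLK4 and HNRNPH3, had log2 fold changes of -0.15, -0.30, 0.19, 0.10, -0.19 and -0.17, with edgeR adjusted p between 0.270 and 0.567. With the block, the adjusted p fell below 0.05 for SMNDC1 (0.0254), GPKOW (0.00602), SRSF5 (0.000453) and HNRNPH3 (0.000777).

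**Figure D5:**
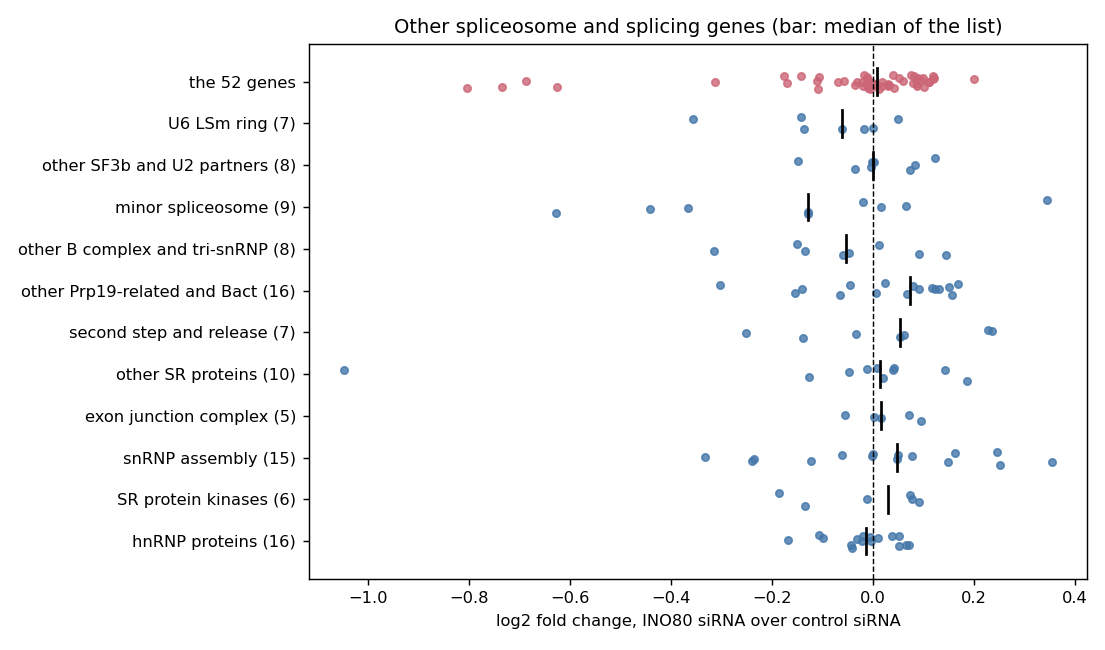
Log2 fold change of INO80 siRNA over control siRNA (x axis, linear) for the 52 genes in red and the 107 other spliceosome and splicing genes in blue by list, with the number of genes in brackets and a black bar at each median. The list medians lie between -0.13 and 0.07, and the single point near -1.05 is SRSF10, a gene with 2 rows in the table.

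SRSF10, at the far left of that plot, had 2.56, 11.6 and 3.10 CPM under control siRNA and 2.64, 3.06 and 2.72 CPM under INO80 siRNA. Control siRNA replicate 2 alone was high. A second SRSF10 row (ENSG00000215699) lies on the contig GL000191.1. Its counts were 116, 162 and 190 under control siRNA and 381, 218 and 218 under INO80 siRNA. Reads can be split between the rows, so the value is uncertain.

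Promoters of the 4 lower genes were compared with those of the other members for 4 motifs, chosen after the values were seen. The promoters, from RefSeq on GRCh38.p14, reach from 250 bases before to 50 bases after the start, and were found for 48 of the 52 genes and for 10025 tested genes. A match on either strand was counted. CCGGAAG, an ETS factor motif, was in 1 of the 4 promoters (PPIL1) and 23 of the 44 others, against 18.9% of all. CCAAT was in 3 of the 4 (SNRNP40, DDX23 and PPIL1) and 12 of the 44, against 36.5% of all. AANATGGC, the YY1 motif, was in 2 of the 4 (DDX23 and CWC22) and 7 of the 44, against 10.1% of all. The 10-letter NRF1 motif was in 0 of the 4 and 9 of the 44, against 11.6% of all. A match is a description of these letters only, and 4 promoters are too few to set apart.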

How the data were processed

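The authors deposited 1 table with raw read counts (whole numbers, not normalized) and FPKM per gene for 6 libraries of HK-2 cells, poly(A)-selected with a directional kit. The FPKM values were deposited by the authors relative to exonic length and to the reads counted on genes. The submitters' processing notes name HISAT2 2.0.1, HTSeq and hg19, while the paper's methods name ELAND and hg38. Coordinates in the table are GRCh37. The strand setting of counting is not given in the sources used here.

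Counts were tested in R 4.3.3 with edgeR 4.0.16 (filterByExpr, TMM, quasi-likelihood test, treatment as the only term, Benjamini-Hochberg adjustment over 15343 genes). Alternatives were RLE size factors, no filter, the replicate block, DESeq2 1.42.0, limma 3.58.1 on log2(FPKM + 0.1) and log2(FPKM + 1), and each library left out. Fits without replicate 1 in both groups, blocked fits without a pair and the block with RLE were added after seeing the data. Simulated data with 200 genes changed by a log2 of 1 gave 197 recovered and 7 false calls without the block, and 198 recovered and 4 false calls with it.

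The replicate numbers pair the libraries. Across tested genes, deviations from the group mean correlated at 0.639, 0.446 and 0.427 between libraries of the same number and at most at 0.165 between others. The labels give only the number. Replicate 1 stood apart from the others in both groups, with correlations from -0.447 to -0.394 to libraries of other numbers.

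The members and all lists were chosen with earlier results of these data known. Named are INO80, SNRNP40, DDX23, PPIL1, members past the threshold, those with the lowest and highest difference or FPKM in each part, other pathway genes past the threshold and the smallest p in each list. Other genes named were chosen after their values were seen. Of 108 other pathway genes, 107 were used. SRSF8 had 2 rows on the same chromosome and was left out, and for SRSF10 the row on chromosome 1 was taken. Sequence matches used GENCODE release 44 on hg38, separately from the GRCh37 coordinates of the table. A comparison of the proteins was planned and not run here. The floor of 3 counts covers counting error only, while SDs and standard errors include the spread between libraries.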

Additional observations from a re-analysis of the deposited data

How the results depend on the processing

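INO80 kept its direction and its call under every alternative run. SNRNP40 ran from -0.86 to -0.73, DDX23 from -0.74 to -0.64, PPIL1 from -0.80 to -0.69 and CWC22 from -0.71 to -0.54 over 17 alternatives (log2 fold change). The alternatives reuse the libraries on which these genes were selected or called, so the ranges are no independent support. Of 884 values of the 52 genes under these alternatives, 871 stayed within 1 standard error of the value reported. The count of lower members, 4, was 3 to 5 with 1 library left out, where 0.115% to 0.932% of all genes were called. It was 5 without replicate 1 in both groups, where 528 genes (3.37%) were called. It was 3 with limma on log2(FPKM + 1), where 67 genes (0.437%) were called. It was 0 with limma on log2(FPKM + 0.1), where 3 genes (0.0196%) were called in all, and 0 with a log2 limit of 1. The other 107 genes gave 0 to 2 lower with 1 library left out and 0 lower with limma on either pseudocount. They gave 1 higher without a filter, where 192 of 29137 genes were higher, and 2 higher with DESeq2, where 135 of 15343 were.

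With the replicate block, 7 members were lower and 3 higher, and 15 and 10 of the other genes. With the block and RLE size factors, the counts were 7 and 2, and 16 and 10, where 25% of all genes were called. Blocked without pair 1, they were 8 and 2, and 17 and 12; without pair 2, 7 and 1, and 7 and 10; without pair 3, 6 and 2, and 9 and 6. In these 3 fits 25.4%, 17% and 14.6% of all genes were called. The 4 lower genes, SF3B2 and PRPF6 were called in each blocked fit, while EFTUD2, SNRPF, SF3B3 and SNRPD2 were each lost in at least 1. The set was chosen with results of these same libraries known, so these calls say nothing of stability. The cause of the differences between fits was not tested. Reads of SNRPE and SNRPG can be shared with processed copies that hold 6.29% and 7.92% of their counts, and 16 members overlap another gene with a mean count of at least 50.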

Other observations

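The gene ontology terms deposited with the table gave each of the 52 genes a splicing term, against 2.13% of all tested genes, which follows from the choice of the set. In the INO80 coding sequence itself, AACGGCA occurs 3 times. Of the 107 other spliceosome and splicing genes, 106 had an annotated coding transcript, and 1 of them, the SR protein kinase SRPK1, held AACGGCA in the 3′ UTR.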
